A study of Mus musculus with 33 samples.

Results

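The RNA described here comes from 2388 numbered genomic regions that overlap a mouse gene without lying wholly inside exactly 1 gene. Of these, 1129 crossed an end of 1 gene and 1259 touched 2 or more genes. They were chosen from 49745 numbered regions by position against the RefSeq genes of GRCm38 and by a total of at least 50 estimated counts over the 24 libraries, and the total count is therefore a description and not a result. The lowest total among members was 50 and the highest total just outside was 49.8, with 82 members between 50 and 55 counts and 87 left-out regions between 45 and 50. Another 2 regions of the immunoglobulin heavy chain constant locus on chromosome 12 and 1 region holding the 7SL RNA gene Rn7s2 were left out.

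The cells were CH12, a B lymphoma line from mouse that can switch its antibody class in culture, and the libraries held total RNA without ribosomal RNA, taken after 48 h. The 4 lines were wild type (WT), a WT clone, and the ZMYND8 knockout (KO) clones KO1 and KO2; ZMYND8 recognises histone marks. For each line 3 unactivated and 3 activated cultures were sequenced. Each comparison of KO with WT lines, or of activated with unactivated cells, therefore set 6 libraries against 6. Comparisons between 2 lines of 1 genotype set 3 against 3. The labels name neither the activating agent nor the KO alleles, call the cultures biological repeats, and give 1 clone per KO line, so differences between clones and between genotypes are separated only by the second clone. The 8 ChIP-seq samples and the GRO-seq sample were not analysed here. The targeted gene could not be checked on its transcripts, because the files do not pair transcript targets with gene names. The 7 regions touching Zmynd8, none of them a member, summed to 1.65 to 2.64 CPM (counts scaled to the TMM-adjusted library size) in unactivated KO and 1.31 to 2.01 CPM in unactivated WT cultures, and to 2.93 to 4.36 CPM and 2.11 to 3.24 CPM in activated ones, so they did not separate the genotypes by a loss of signal.

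Polymerase II does not stop where a gene annotation ends. Transcription starts on both strands at many promoters, continues past the poly(A) site before termination, and runs through neighbouring or antisense genes, so a region at a gene edge can hold upstream antisense RNA, readthrough RNA, an unannotated exon or a neighbouring gene's RNA. Small RNA genes such as those for U small nuclear RNAs, Y RNAs, tRNAs and microRNAs are shorter than most regions and often fall whole into one. The tables give no strand for a region, so RNA of 2 overlapping genes could not be told apart. Annotated transcripts were separate targets of the same quantification, and their values are not described here. A level or change given below under a gene's name is that of the region and not of the gene's transcripts. How reads were divided between a region and overlapping transcripts was not tested.

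The members were 255 to 20296 bases long (median 2001.5 bases, against 697 for all regions). Among the members at 1 gene, 411 crossed its 3′ end, 305 crossed its 5′ end, 147 held the whole gene and 266 touched a gene whose strand is not given in the annotation used. Of those at several genes, 657 lay inside all genes they touched, 394 inside 1 while touching others, 23 joined convergent ends, 12 joined divergent starts and 10 lay between genes in tandem; in another 60 the genes were side by side with a strand not given, and in 103 they overlapped or numbered 3 or more. They touched 3212 genes, of which 1430 are protein-coding, and the region with the most held 25. A protein-coding gene with a lncRNA gene was the commonest content (718 members), followed by 1 protein-coding gene (499), 1 lncRNA gene (446) and a small RNA gene (217).

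Sequence is shown first for the gene starts that lie in members with a genotype or activation difference described below. For 516 members, 612 RefSeq promoter windows of 542 genes (250 bases before to 50 after the start, GRCm38.p6) have their annotated start inside the region. A window can reach beyond its region. The motif TATAAA, searched on both strands, was in 13.4% of these windows and in 13.6% of all 32851 windows. CCAAT on either strand was in 36.1% against 37.4%, and GGGCGG on either strand in 23.4% against 35.7%. Mndal encodes an interferon-inducible DNA-sensing family protein, Gimap3 a lymphocyte GTPase, Gm32312 a lncRNA next to Ostn, and Zfp983 a zinc finger protein. Capitals mark a motif match. In the Mndal window CCAAT began 2 bases before the annotated start, in that of Gm32312 TATAAA began 31 bases before it, and that of Zfp983 held CCAAT on the reverse strand (ATTGG) 246 bases before it. The Gimap3 window held none of the 3 motifs.
Mndal, chr1:173880138-173880437, minus strand: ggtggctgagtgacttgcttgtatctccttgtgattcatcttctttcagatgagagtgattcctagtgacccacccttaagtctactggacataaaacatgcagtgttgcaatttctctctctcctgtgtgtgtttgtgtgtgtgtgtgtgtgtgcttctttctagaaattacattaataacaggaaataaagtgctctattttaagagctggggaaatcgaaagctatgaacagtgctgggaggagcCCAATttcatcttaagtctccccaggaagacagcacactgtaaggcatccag
Gimap3, chr6:48770802-48771101, minus strand: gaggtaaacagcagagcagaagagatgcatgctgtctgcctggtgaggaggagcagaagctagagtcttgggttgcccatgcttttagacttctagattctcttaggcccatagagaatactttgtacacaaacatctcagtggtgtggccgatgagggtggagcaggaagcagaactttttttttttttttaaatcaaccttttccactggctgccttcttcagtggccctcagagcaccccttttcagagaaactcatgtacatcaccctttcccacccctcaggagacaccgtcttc
Gm32312, chr16:27326592-27326891, minus strand: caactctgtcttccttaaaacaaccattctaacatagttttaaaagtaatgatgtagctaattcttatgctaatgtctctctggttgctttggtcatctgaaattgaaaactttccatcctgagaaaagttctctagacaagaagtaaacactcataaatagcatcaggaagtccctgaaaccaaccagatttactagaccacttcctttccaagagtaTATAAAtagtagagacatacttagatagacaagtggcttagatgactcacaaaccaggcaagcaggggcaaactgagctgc
Zfp983, chr17:21650361-21650660, plus strand: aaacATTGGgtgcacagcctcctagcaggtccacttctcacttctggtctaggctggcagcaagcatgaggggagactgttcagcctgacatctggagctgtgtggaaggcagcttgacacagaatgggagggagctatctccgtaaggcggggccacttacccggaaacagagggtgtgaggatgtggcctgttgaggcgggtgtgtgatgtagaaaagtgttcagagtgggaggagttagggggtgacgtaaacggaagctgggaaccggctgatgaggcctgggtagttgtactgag

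Members also held 32 microRNA genes, of which 31 were matched to the RefSeq table, with 49 mature sequences and 49 distinct seeds, so no 2 shared one. Mature microRNAs are too short for these libraries, and a region's counts stand for the primary transcript or a host gene. The mature forms below belong to the members whose values are given later, with the seed, bases 2 to 8, in capitals.
miR-21a-5p: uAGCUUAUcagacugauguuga
let-7i-5p: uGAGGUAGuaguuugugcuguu
miR-150-3p: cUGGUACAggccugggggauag
miR-1190: uCAGCUGAgguuccccucuguc
miR-1983: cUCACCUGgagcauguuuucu
miR-7688-5p: uAGCUGGGcaugaucugaugagc
miR-7649-5p: uGACAGCAgugcuguagacaug
miR-23a-3p: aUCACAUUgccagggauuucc
miR-27a-3p: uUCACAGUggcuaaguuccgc
miR-24-3p: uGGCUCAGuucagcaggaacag

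Total estimated counts per library ranged from 28.99 to 34.07 M (median 32.1 M), of which the members took 0.460% to 0.787% (median 0.563%). Counts were concentrated, as the 10 most abundant members held 45.8% of all member counts and the 100 most abundant 74.9%. Cultures of 1 group differed beyond counting noise over the members (chi-square per degree of freedom 2.75 to 25.6). Replicate 3 of unactivated WT and replicate 2 of the unactivated WT clone stood apart from the rest, with mean Spearman correlations to their own group of 0.845 and 0.873 over 491 members (0.887 to 0.942 for the others), and the counts of calls over all members are also given without them, those of a gene group where they moved by more than 1.5 times. Regions holding B cell markers summed to 19.5 to 69.1 CPM per library for 6 of 8 markers, those of T cells to 0.153 to 0.939 CPM for 3 of 7, and those of myeloid cells to 0.242 to 1.05 CPM for 2 of 5. In bulk RNA, fewer cells of a type and less RNA per cell cannot be told apart.

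The 217 members that hold a small RNA gene (9.09%) took 59.2% of member counts, and RNA of a host gene in these regions cannot be told apart from the small RNA. The highest levels were in regions around small nuclear or nucleolar RNA genes: 472 CPM on average at Gm2395 and LOC115488065 on chromosome 12, 437 CPM at Gm23444, 424 CPM at D230017M19Rik and Gm25939, and 379 CPM at Gm23971. The region at Tex14 and Rnu3b2, which encodes the small nucleolar RNA U3, lay at 210 CPM. Copies of these genes are close in sequence and kallisto divides reads among them, so the level of a single copy is uncertain. The region with the tenth highest mean level, 117 CPM, was not a small RNA locus but the kappa light chain constant gene Igkc with its J segments.

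The share of a library in the 217 small RNA members was lower in KO than in WT lines on average. Among unactivated cultures it ranged from 0.263% to 0.334% (median 0.315%) in KO and from 0.287% to 0.569% (median 0.363%) in WT. Among activated cultures it ranged from 0.265% to 0.344% (median 0.292%) in KO and from 0.294% to 0.439% (median 0.384%) in WT. The groups overlapped in both states, and the highest value was the WT clone culture that stood apart. For the other 2171 members the activated KO share, 0.279% ± 0.0148 (SD, n = 6), lay above that of activated WT, 0.248% ± 0.0171, again with overlapping ranges, and in unactivated cultures the means were 0.208% and 0.213%. This division of the members was chosen after the values were seen.

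**Figure D1:**
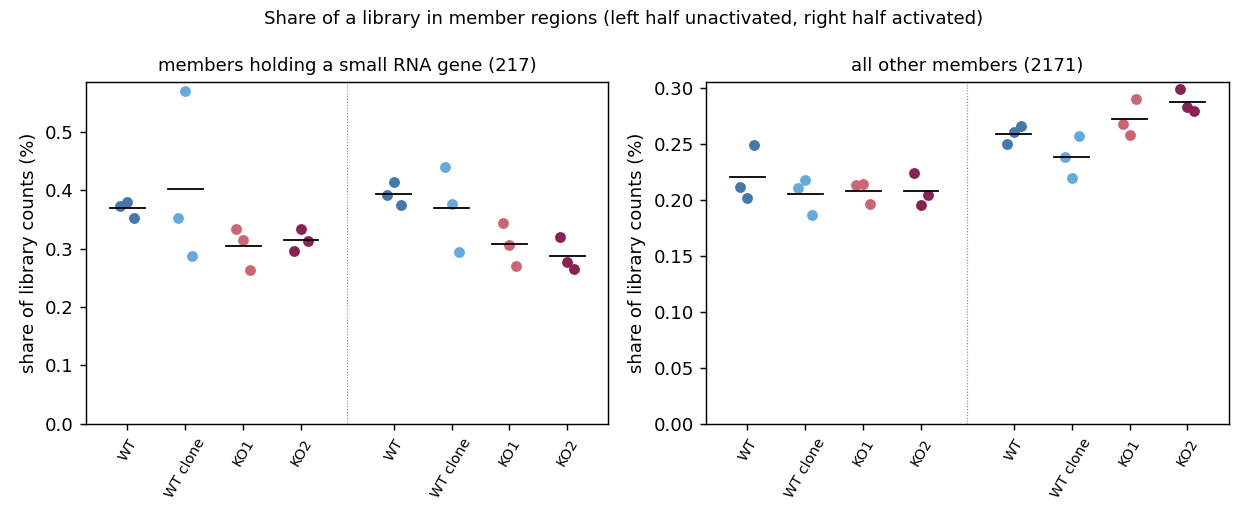
Share of each library's counts (%) in the 217 members holding a small RNA gene (left panel) and in the other 2171 members (right panel). Each point is a culture, each bar the mean of 3; the small RNA share reaches 0.569% in 1 unactivated WT clone culture and its KO points lie between 0.263% and 0.344%.

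Within these small RNA members, 182 were tested. In unactivated KO lines 3 were higher and 8 lower, or 6.04% against a background of 7.16% of all targets. In activated KO lines 4 were higher and 9 lower (7.14% against 6.52%), and without the 2 libraries that stood apart 4 and 17. These shares lay near the background in both states, and on activation of WT lines 22% were called against 20.2%. Rny3, a Y RNA gene whose product binds Ro60, lay at 8.03 to 18.9 CPM (median 10.7) in activated KO and 13.8 to 32.9 CPM (median 20.6) in activated WT. The 2 ranges overlapped, the log2 change was -0.91 ± 0.27 (standard error, as for all log2 changes here) with an adjusted p of 0.046, and the call was lost when 9 of 12 libraries were left out one at a time. Rny1, its neighbour on chromosome 6, fell by 0.70 ± 0.18 on the log2 scale (adjusted p 0.024), with 5 such losses. Of the 12 members of the list of other small noncoding RNA genes, which includes both, none rose in KO lines, 1 fell in unactivated cells and 2 in activated cells. This is 8.33% and 16.7%, where 4.03% and 3.02% of all targets were called lower. The 1 that fell in unactivated cells holds Terc, the telomerase RNA, with Pafah1b1-ps1 and a tRNA gene: 10.5 to 12.2 CPM in KO against 12.9 to 19.6 CPM in WT, a log2 change of -0.42 ± 0.09 (adjusted p 0.0061).

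In unactivated cells 73 of the 1625 members that passed the low-count filter were higher in KO than in WT lines and 62 lower, or 4.49% and 3.82%. With counts summed per line (2 against 2), 4 were higher and 2 lower. Log2 changes come from edgeR's quasi-likelihood test, with p adjusted by Benjamini-Hochberg over all 61074 targets and a call made under 0.05. Over all those targets the background was 3.13% higher and 4.03% lower, and over the 9639 tested regions that are not members 3.62% and 2.44%. The median log2 change of the members was -0.04, that of all targets -0.04. Without the 2 libraries that stood apart 71 were higher and 48 lower, with 56 and 43 of the calls shared. The other 763 members were too low to test. Groups did not overlap for 55 tested members that were higher and 30 that were lower, where the background over the 11264 regions tested was 2.81% and 1.44%. Comparisons of 2 lines of 1 genotype set only 3 libraries against 3, so their counts of calls cannot be set directly against those above. Between the WT clone and WT, 2 unactivated members were lower and none higher by edgeR (58 and 40 at an unadjusted p under 0.05), and between KO2 and KO1 3 were higher and 1 lower, against backgrounds of 0.393% and 0.134%, and 0.177% and 0.226%.

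Immunoglobulin light chain segments changed in both directions in unactivated KO cells. A region on chromosome 16 (chr16:19059420-19065940) with the lambda constant genes Iglc1 and Iglc3 and the joining segment Iglj1 lay at 12.2 to 30.5 CPM (median 18.9) in KO and at 55.0 to 122 CPM (median 81.1) in WT cultures. All KO cultures were below all WT cultures, with a log2 change of -2.25 ± 0.14 (adjusted p 3.3e-09). In the opposite direction, the kappa variable segment Igkv1-88 (chr6:68861770-68863377, whole gene) lay at 12.6 to 19.6 CPM (median 16.5) in KO and 0.591 to 1.91 CPM (median 1.35) in WT. The ranges did not meet and the log2 change was 3.73 ± 0.30 (adjusted p 1.2e-07). Its neighbour Igkv12-89 (chr6:68834517-68835773) rose as well, from 0.692 to 2.57 CPM in WT to 3.97 to 4.80 CPM in KO, by 1.42 ± 0.31 (adjusted p 0.0064), a call that was lost against the WT line alone. The region holding Igkc, Igkj4, Igkj5 and part of Gm30211 fell by 0.62 ± 0.10 (adjusted p 0.00065), and the V segment Igkv10-96 fell by 0.91 ± 0.10 (adjusted p 6.3e-06). Gm30211 itself did not fall with Igkc elsewhere. The member across its 3′ end rose by 1.35 (adjusted p 3.4e-05) and the regions inside it by 1.88 (adjusted p 1.3e-07).

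**Figure D2:**
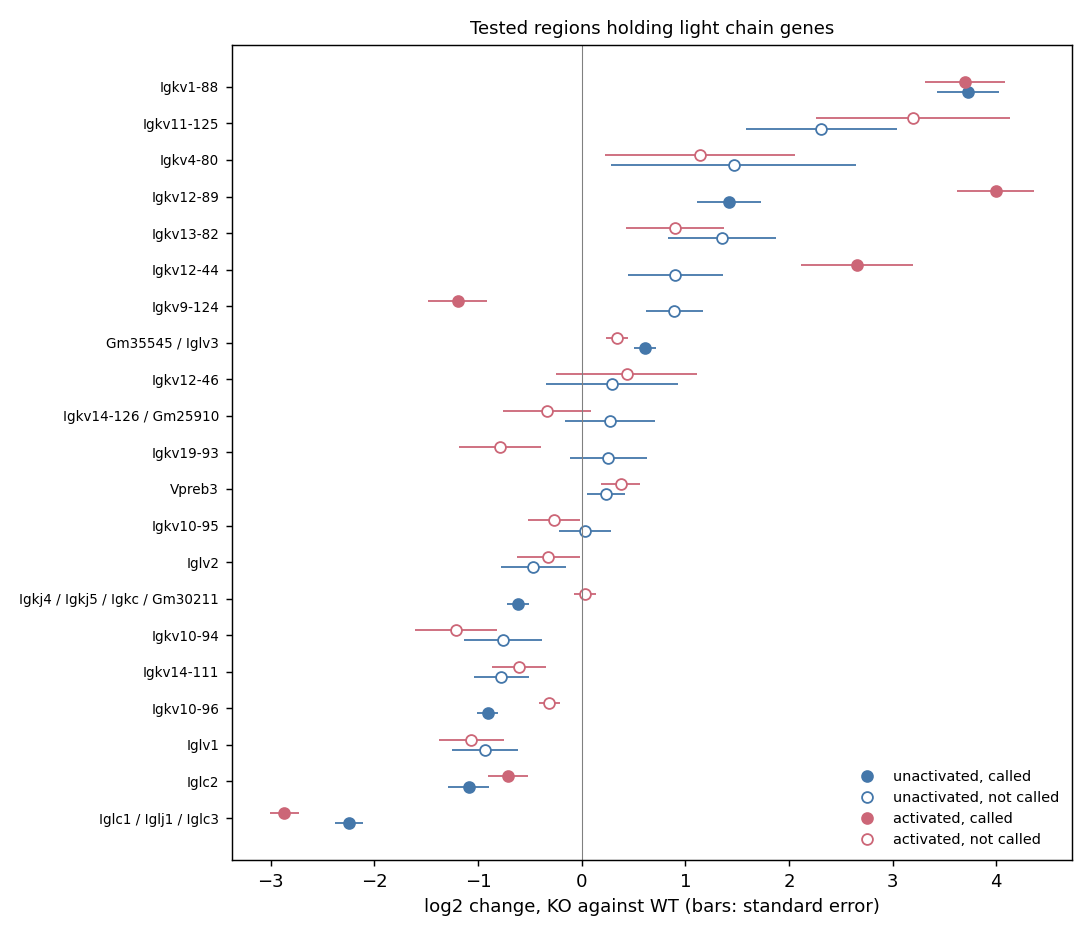
Log2 change between KO and WT lines with its standard error for the 21 tested members holding light chain genes, in unactivated (blue) and activated (red) cells; filled points were called by edgeR. Igkv1-88 lies far to the right in both states and Iglc1, Iglj1 and Iglc3 far to the left, while Igkv9-124 lies on opposite sides in the 2 states.

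Of the 24 light chain members, 21 were tested: 3 rose and 4 fell in unactivated KO cells, and 3 rose and 3 fell in activated ones. This is 33.3% and 28.6% called, against 7.16% and 6.52% of all targets. Fitted among numbered regions only, these counts were 5 and 6 in unactivated and 3 and 6 in activated cells. In a cell that makes 1 light chain, V segments that are not rearranged can be transcribed at a low level as germline RNA, and neighbouring V segments can differ. The list's median log2 change was 0.26 unactivated and -0.27 activated, against -0.04 and 0.003 over all targets. Among the 36 members holding any immunoglobulin or T cell receptor segment, 27 were tested and 29.6% were called in each state, where the background was 7.16% and 6.52% of all targets. On activation of WT lines 48.1% were called, with a background of 20.2%.

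Regions lower in unactivated KO lines included a stretch inside Ece1, an endothelin-converting protease, which also touches the lncRNA gene Gm52683. It lay at 0.699 to 1.58 CPM in KO and 3.38 to 7.25 CPM in WT, a log2 change of -2.25 ± 0.18 (adjusted p 1.3e-07), and the log2 change of the regions inside Ece1 alone was 0.12. For Irf8, a transcription factor of B and myeloid cells, the region across its 3′ end lay at 0.274 to 0.747 CPM in KO and 1.14 to 2.48 CPM in WT (-2.02 ± 0.30, adjusted p 0.00016), and the log2 change of the regions inside the gene was -2.59. Both pairs of ranges were apart. Bcl2a1d, an anti-apoptotic NF-kB target that overlaps Gm10634, lay at 1.13 to 1.89 CPM in KO and 3.23 to 4.55 CPM in WT (-1.45 ± 0.19, adjusted p 4.1e-05). Gpr183, a chemotactic receptor nested in Ubac2, fell by 1.41 ± 0.24 (adjusted p 0.00067), while the inside of Ubac2 changed by -0.01. Tmem176b and Tmem176a fell by 2.04 ± 0.35 and Lgals1, which encodes galectin-1, by 1.93 ± 0.28 (adjusted p 0.00069 and 0.00013). Ostn with Gm32312, whose promoter is printed above, fell by 1.41 ± 0.21 (adjusted p 0.00015); this call was lost against WT alone.

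Regions higher in unactivated KO lines included 2 between Pebp4 and the lncRNA gene Gm33524 on chromosome 14. The larger one (chr14:70054583-70058198) lay at 5.45 to 13.3 CPM (median 8.27) in KO and 1.96 to 4.32 CPM (median 2.62) in WT, without overlap, for a log2 change of 1.51 ± 0.18 (adjusted p 1.7e-05). At Glb1, the lysosomal beta-galactosidase gene, a region shared with Gm30254 lay at 3.91 to 5.69 CPM in KO and 0.822 to 1.55 CPM in WT (1.92 ± 0.28, adjusted p 0.00012). Rnf122, a ubiquitin ligase gene, rose by 2.38 ± 0.27 and the 3′ end of Ms4a6c, a membrane protein of the MS4A family, by 1.85 ± 0.26 (adjusted p 7.6e-06 and 0.0001). All these KO cultures lay above all WT cultures. Weaker calls were Arid5b with Gm51770 (adjusted p 0.045, lost without any 1 library of the comparison) and Sft2d2 (1.53 ± 0.35, adjusted p 0.0094, ranges overlapping). On the lower side, Dancr with Snora26 (adjusted p 0.038) and the tRNA gene n-TEttc8 (adjusted p 0.026) lost their calls without the 2 libraries that stood apart. Bmp8a, a bone morphogenetic protein gene, rose by 1.24 ± 0.25 across its 3′ end (adjusted p 0.0039). Comparisons that kept only 1 KO line or 1 WT line had 3 libraries fewer. Among the calls named here for unactivated cells, that of Arid5b was lost in each of the 4 and that of Sft2d2 in 3. Those of Bmp8a, Dancr, n-TEttc8, Mndal, Irf4 and Ms4a1 were lost against WT alone and with KO1 or KO2 alone, those of Igkv12-89, Ostn, Bach2 and Terc against WT alone, and that of Gm41300 with KO2 alone.

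In activated cells the split was uneven, with 121 members higher and 40 lower in KO lines (7.45% and 2.46%). The background was 3.5% higher and 3.02% lower over all targets, and 5.36% and 1.16% over the other regions, so the split towards higher calls was seen in both kinds of region. Fitted among numbered regions only, 120 members were higher and 92 lower, or 56.6% of calls instead of 75.2%, and the median member change moved from 0.08 to -0.05. That fit differs in its scaling, in the members that pass the filter (1590), in its estimate of the spread and in the targets adjusted over, and their parts were not tested. With relative log expression scaling of all targets the counts were 116 and 43. Without the 2 unactivated libraries that stood apart the counts were 136 and 54, and all 121 and 40 calls were shared. Of the members called higher in unactivated cells, 47 were also higher in activated cells (64.4% of 73 and 38.8% of 121), and 18 were lower in both states (29.0% of 62 and 45% of 40). Groups did not overlap for 89 higher and 25 lower tested members (background over regions 4.57% and 0.985%). Between the 2 WT lines, again with 3 libraries against 3, 2 members were higher and 5 lower in activated cells, and between KO2 and KO1 2 and 2, where the backgrounds were 0.128% and 0.378%, and 0.221% and 0.239%.

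**Figure D3:**
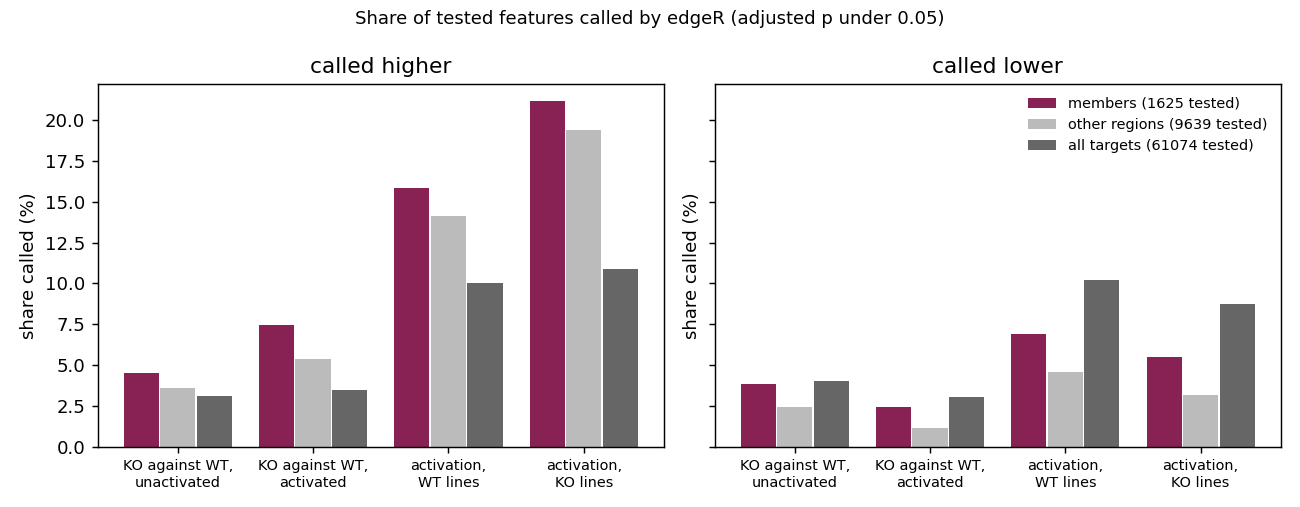
Share of tested features called higher (left) and lower (right) by edgeR in 4 comparisons, for members, other regions and all targets. Members reach 7.45% higher and 2.46% lower for KO against WT in activated cells, and 21.2% higher and 5.48% lower for activation of KO lines.

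Iglc1 with Iglj1 and Iglc3 was again far lower, at 8.04 to 14.9 CPM (median 12.8) in activated KO against 74.2 to 121 CPM (median 82.9) in activated WT. The groups were apart and the log2 change was -2.87 ± 0.14 (adjusted p 3.5e-10). Mndal, measured across its 5′ end (chr1:173877122-173880851), lay at 3.57 to 5.37 CPM (median 4.21) in KO and 10.3 to 15.1 CPM (median 12.9) in WT. It fell without overlap by 1.57 ± 0.14 (adjusted p 3.9e-07), against 0.64 ± 0.14 in unactivated cells. Bcl2a1d fell by 1.12 ± 0.18, Ece1 with Gm52683 by 1.24 ± 0.18, Gpr183 by 0.97 ± 0.23 and Gramd1b with Gm51668 by 1.74 ± 0.38 (adjusted p 0.00045, 0.00014, 0.012 and 0.0061). Cd82, a tetraspanin gene, fell by 0.97 ± 0.27, with an adjusted p of 0.038 that was lost without 10 of 12 single libraries. The heavy chain segment Ighv1-54 was nearly absent from KO cultures, at 0 to 0.261 CPM against 0.377 to 3.03 CPM in activated WT (adjusted p 0.0014). In the 4 comparisons that kept 1 KO or 1 WT line, the activated call of Irf4 was lost in each, those of Rny1, Rny3 and Cd82 in 3, those of Gpr183, Gramd1b, Trac and Tgfbr2 in 2, and those of Castor1 and Bach2 in 1.

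Among regions higher in activated KO lines, Igkv12-89 lay at 1.21 to 3.60 CPM (median 1.67) against 0 to 0.565 CPM (median 0.160) in WT, a log2 change of 3.99 ± 0.37 (adjusted p 8.5e-07). Ms4a6c lay at 8.36 to 17.5 CPM (median 9.52) in KO and 1.55 to 3.73 CPM (median 2.43) in WT, a change of 2.16 ± 0.25 (adjusted p 8.6e-06). In neither did the groups overlap, and for Ms4a6c the regions inside the gene changed by only 0.10. The larger Pebp4 region lay at 15.4 to 26.1 CPM in KO and 2.81 to 5.98 CPM in WT (2.21 ± 0.19, adjusted p 2.3e-07). Gimap3, across its 5′ end, lay at 1.17 to 3.57 CPM in KO and 0.519 to 0.870 CPM in WT (1.68 ± 0.22, adjusted p 5.1e-05). Further calls were Iqschfp with Iqcj (2.70 ± 0.34), Glb1 (2.01 ± 0.28), Bmp8a (1.75 ± 0.26), Dus2, a tRNA-modifying enzyme gene (1.75 ± 0.20), and Castor1, an arginine sensor of the mTORC1 pathway (1.45 ± 0.28), with adjusted p from 8.1e-06 to 0.0025. Neat1, the architectural lncRNA of nuclear paraspeckles, lay at 4.57 to 7.66 CPM in activated KO and 1.74 to 3.43 CPM in activated WT (1.18 ± 0.14, adjusted p 1.7e-05).

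**Figure D4:**
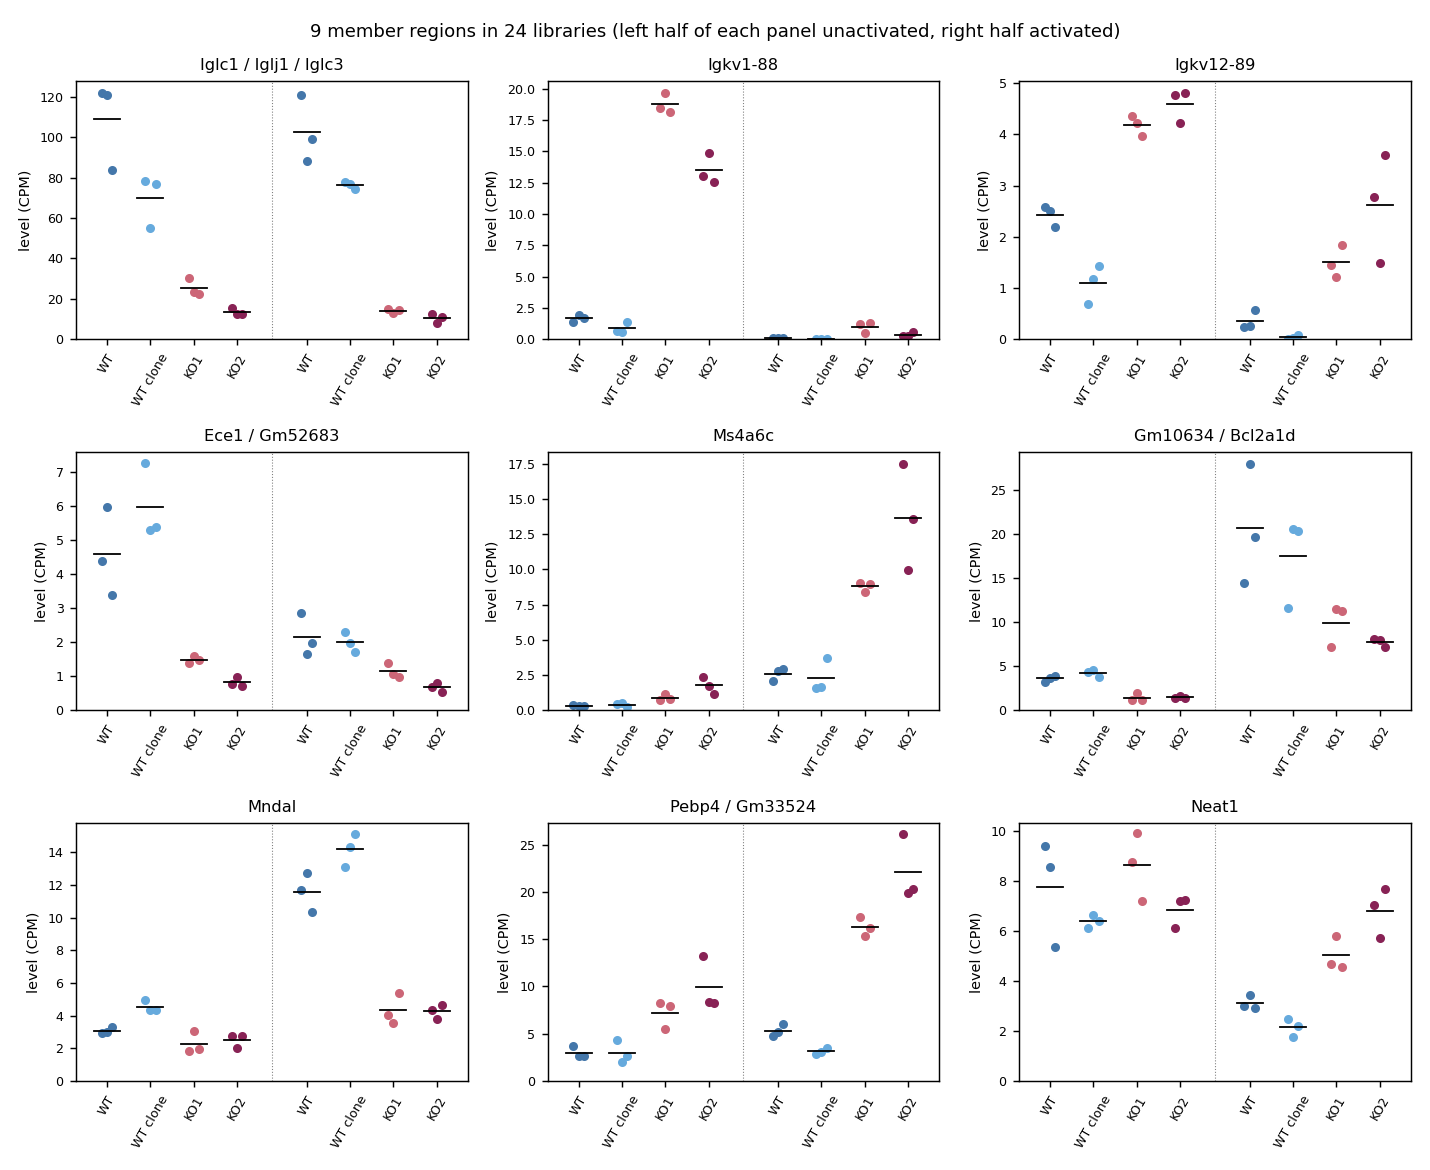
Level (CPM) of 9 members in each of 24 cultures, by line, unactivated left and activated right of the dotted line; bars are means of 3 cultures. Iglc1, Iglj1 and Iglc3 are low in both KO lines in both states, Igkv1-88 is high in unactivated KO lines, and Mndal separates KO from WT mainly after activation.

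The plasma cell and B cell lists had few members here. Irf4, a driver of plasma cell differentiation, was measured across its 3′ end and rose by 0.91 ± 0.20 in unactivated KO cells (adjusted p 0.0072), with overlapping ranges of 2.39 to 6.21 CPM against 1.19 to 2.78 CPM. Its activated change, 0.68 ± 0.20, had an adjusted p of 0.047 that was lost without any single library. The regions inside Irf4 were not called by edgeR in unactivated KO cells (0.35, adjusted p 0.37). In activated KO cells they rose by 0.81 (adjusted p 0.0041). The region across the 3′ end of Irf4 was the 1 of 3 plasma cell members called in KO cells in each state (33.3%, against 7.16% and 6.52% of all targets). Bach2, a repressor of that programme, overlaps Bach2os, and their region rose by 1.11 ± 0.17 and 0.90 ± 0.17 in KO cells in the 2 states (adjusted p 0.00027 and 0.0017), without overlap between KO and WT. The region shared by Ms4a1, which encodes CD20, and 4930526L06Rik rose by 0.87 ± 0.21 in unactivated KO cells (adjusted p 0.014), a call lost without the 2 libraries that stood apart. Of the 7 B cell members 5 were tested, with 2 higher in unactivated and 1 in activated KO cells (40% and 20%). Over all targets 3.13% and 3.5% were called higher. Without the 2 libraries that stood apart, 1 B cell member and 2 plasma cell members were higher in unactivated KO cells. Summed levels of B cell marker regions moved with genotype too, at 36.3 to 53.0 CPM in unactivated KO and 19.5 to 45.4 CPM in unactivated WT, and at 51.1 to 69.1 CPM in activated KO and 30.8 to 52.5 CPM in activated WT; their part in these results was not tested.

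Activation of WT lines raised 257 and lowered 112 members (15.8% and 6.89%), where the background was 10% and 10.2% over all targets and 14.1% and 4.58% over the other regions. In KO lines 344 rose and 89 fell (21.2% and 5.48%), with a background of 10.9% and 8.73% over all targets and 19.4% and 3.2% over the other regions. Fitted among numbered regions only, 185 rose and 238 fell in WT lines (43.7% of calls higher, against 69.6%), and 230 rose and 246 fell in KO lines (48.3% against 79.4%), and the median member change shifted by -0.23 and -0.35 on the log2 scale. With relative log expression scaling of all targets the counts were 252 and 116 in WT and 333 and 101 in KO lines. Without the 2 libraries that stood apart, 305 members rose and 115 fell in WT lines, and 378 and 106 in KO lines. Groups did not overlap for 143 higher and 53 lower tested members in WT lines and for 234 and 43 in KO lines, where the background over regions was 7.68% and 2.23%, and 13.2% and 2.12%.

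On activation of WT lines 6 of the 7 tested members of the CD40 and NF-kB list rose (85.7%). Over all targets 10% were called higher, and over members 15.8%. The list's median log2 change was 1.61, against 0.02 over all targets. The count was also 6 with relative log expression scaling and in the fit among numbered regions only. In activated KO cells 1 of the list was lower than in WT (14.3%, against 3.02% of all targets called lower), or 3 when fitted among regions only. Nfkbia encodes the inhibitor of NF-kB alpha, itself an NF-kB target, and the region across its 3′ end lay at 11.9 to 25.5 CPM (median 20.9) in activated and 2.47 to 3.99 CPM (median 2.63) in unactivated WT cultures. The groups were apart, with a log2 change of 2.74 ± 0.23 (adjusted p 6.9e-08). Ccl22, a chemokine, rose by 2.58 ± 0.25, Bcl2a1d by 2.29 ± 0.19 and Bcl3, an atypical NF-kB inhibitor gene, by 1.22 ± 0.17 (adjusted p 4.8e-07, 5.8e-08 and 3.3e-05). For the MHC list 3 of 4 members rose in WT lines (75%, against 10% of all targets and 15.8% of members called higher). Regions of Ciita, the master activator of MHC class II, rose by 2.69 ± 0.52 and 2.31 ± 0.24 (adjusted p 0.00081 and 1e-06), and Cd74, the invariant chain gene, by 0.64 ± 0.16 (adjusted p 0.0061), a call lost when fitted among regions only. B2m with Patl2 changed by 0.96 ± 0.44 (adjusted p 0.15).

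Other regions that rose in activated WT lines were Cd82 with Gm10804 (3.17 ± 0.30), Ms4a6c (2.83 ± 0.27), Dhx58, a cytosolic RNA sensor (2.76 ± 0.80, called no longer without the 2 libraries that stood apart), 2 regions of Rnf216 with Gm43380 (2.69 ± 0.31 and 2.46 ± 0.29), Ctif with Gm52357 (2.57 ± 0.45) and Lcp2, a signalling adaptor (2.40 ± 0.43). Tgfbr1, a TGF-beta receptor gene, rose by 1.69 ± 0.21 (adjusted p 9.4e-06), the 1 of 3 members of that list to do so (2 without the libraries that stood apart). This is 33.3%, against 10% of all targets and 15.8% of members called higher. In activated KO cells Tgfbr2 with Gm31292 was higher than in WT by 1.19 ± 0.29 (adjusted p 0.013). It was the 1 of 3 called there (33.3%, against 3.5% of all targets called higher). Zinc finger Zfp genes were touched by 52 members, of which 36 were tested and 5 rose in WT lines. This is 13.9% of them, against 10% of all targets and 15.8% of members called higher. Fitted among regions only 4 rose and 1 fell and the list's median moved from 0.21 to -0.04, and without the 2 libraries that stood apart 7 rose and 1 fell. Zfp983, across its 5′ end, went from 1.04 to 1.94 CPM (median 1.56) unactivated to 3.39 to 6.07 CPM (median 3.96) activated, without overlap, by 1.51 ± 0.18 (adjusted p 6.4e-06).

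Across the light chain list 3 of 21 tested members rose and 9 fell on activation of WT lines. This is 57.1% called, against 20.2% of all targets and 22.7% of members. Fitted among regions only, 2 rose and 10 fell. Igkv1-88 went from 0.591 to 1.91 CPM to 0 to 0.0945 CPM in WT lines and from 12.6 to 19.6 CPM to 0.213 to 1.29 CPM in KO lines. The changes were -4.74 ± 0.38 and -4.77 ± 0.32 (adjusted p 4.1e-08 and 3.5e-09). Trac, the T cell receptor alpha constant gene, went from 2.92 to 8.41 CPM to 0.874 to 2.05 CPM, by -1.97 ± 0.27 (adjusted p 2.2e-05), beside summed T cell marker regions of 0.259 to 0.561 CPM unactivated and 0.153 to 0.442 CPM activated in WT lines. Trac was also higher in activated KO than in activated WT cells, by 0.97 ± 0.26 (adjusted p 0.027, lost without 7 of 12 single libraries), beside marker sums of 0.435 to 0.892 CPM in activated KO cultures; the markers' part in these results was not tested. At Nr3c1, the glucocorticoid receptor gene, a region across one gene end fell by 2.14 ± 0.32 (adjusted p 6.2e-05), while the regions inside the gene changed by 0.09. Another member across an end of Nr3c1 changed by 0.25 (adjusted p 0.65). Further falls were at Eml6 with Gm39671 (-2.08 ± 0.36), Cyp11a1 with Gm17322 (-2.06 ± 0.42), Pip5k1b with Pip5k1bos (-2.03 ± 0.22) and Rab11fip4 with Rab11fip4os2 (-1.61 ± 0.36). Neat1 fell by 1.45 ± 0.14 in WT lines (adjusted p 5.2e-07), and its change in KO lines was -0.39 ± 0.14 (adjusted p 0.055).

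On activation of WT lines 3 of 10 snoRNA members fell (30%), 2 of 7 tested members of snoRNA host and nuclear noncoding genes (28.6%), 2 of 8 of the ribosomal protein list (25%) and 1 of 2 of the MYC and ribosome biogenesis list, and none rose. The background of lower calls was 10.2% over all targets and 6.89% over members. Fitted among regions only, the first 3 counts became 8, 5 and 6. The snoRNA host 1110038B12Rik with Snord52 fell by 0.74 ± 0.13 and Snhg7 with Dipk1b and Snora43 by 0.48 ± 0.10 (adjusted p 0.00028 and 0.0016). Ncl, the nucleolin gene, fell by 0.72 ± 0.23 across its 3′ end (adjusted p 0.037), a call lost without the 2 libraries that stood apart. The ribosomal list was formed by symbol and also took in Rps6kl1 and Rps19bp1, which are not ribosomal proteins; Rps6kl1 with Dlst was 1 of the 2 that fell, by 0.76 ± 0.13, and Rps9 the other, by 0.44 ± 0.13 (adjusted p 0.00024 and 0.023). Of the remaining lists, class switch and DNA repair (1 member) and interferon response (3 members, 1 tested) had no edgeR call between KO and WT or in WT activation (1 interferon member was lower in activated KO cells when fitted among regions only), and histone genes and myeloid markers had no member.

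MicroRNA genes lay in 29 members, of which 20 were tested. In WT lines 7 rose and 4 fell on activation, or 55% against a background of 20.2% of all targets and 22.7% of members, and when fitted among regions only 5 rose and 4 fell. In unactivated KO lines 1 rose and 1 fell (10% against 7.16%), or none and 1 without the 2 libraries that stood apart. The region with Vmp1 and Mir21a, whose miR-21a-5p seed is printed above, lay at 23.6 to 32.1 CPM (median 25.6) in activated KO and 14.2 to 18.3 CPM (median 15.8) in activated WT. It was the 1 member of the list called in activated KO cells, with no overlap and a log2 change of 0.72 ± 0.11 (adjusted p 0.00035). As Vmp1 and Mir21a lie on the same strand, the host and the microRNA precursor cannot be told apart. On activation of WT lines, Ccdc88c with Gm36756 and Mir1190 rose by 1.15 ± 0.19, and Clec2g with Gm15987 and Mir7649 rose by 0.88 ± 0.17 (adjusted p 0.00016 and 0.00082). Mir150, a lymphocyte microRNA, lay at 0.363 to 0.890 CPM unactivated and 0.214 to 0.476 CPM activated in WT lines and fell by 0.79 ± 0.24 (adjusted p 0.021). Mir1983 with a tRNA gene fell by 1.55 ± 0.28 and Gm40742 with Mir7688 by 1.54 ± 0.24 (adjusted p 0.0005 and 9e-05). The let-7i region, at 1.74 to 4.91 CPM over all cultures, and that of the Mir23a, Mir27a and Mir24-2 cluster had no call, with KO changes in activated cells of 0.45 ± 0.16 and 0.61 (adjusted p 0.12 and 0.13).

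Regions joining 2 genes end to end were few. Of 22 tested convergent members 6 rose and 2 fell in activated WT lines (36.4% called, against 20.2% of all targets and 22.7% of members; 6 and 1 without the 2 libraries that stood apart); the one across the ends of Prdx2 and Junb, an AP-1 subunit gene, rose by 1.70 ± 0.21 (adjusted p 9.7e-06). Between Swap70, which encodes a B cell guanine nucleotide exchange factor, and Gm32861 the level was 21.4 to 28.4 CPM (median 25.0) in activated KO and 11.5 to 14.6 CPM (median 13.0) in activated WT. All KO cultures were higher, and the change was 0.97 ± 0.12 (adjusted p 3.9e-05). Of 9 tested divergent members, 1 was higher in unactivated KO lines, or 11.1% against 3.13% of all targets called higher. It was the start pair of Gm41300 and Gm34590. These pairs were named after their values were seen.

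For 160 members across an end of 1 gene (157 genes) the gene also had a value from the regions wholly inside it. Across these members the Pearson correlation of the 2 log2 changes was 0.54 for KO against WT unactivated, 0.63 activated, 0.70 for activation of WT and 0.72 for activation of KO lines. Points share libraries, and these are correlations across regions, which are not independent replicates. Of the regions called, 19 of 22, 25 of 32, 35 of 38 and 49 of 52 had the sign of the inside. The inside was called in the same direction for 8, 15, 22 and 30. The 1 opposite pair of calls in WT activation was Lair1, an inhibitory receptor gene, named after its values were seen, where the region across the 5′ end rose by 3.06 on the log2 scale while the inside changed by -1.27.

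**Figure D5:**
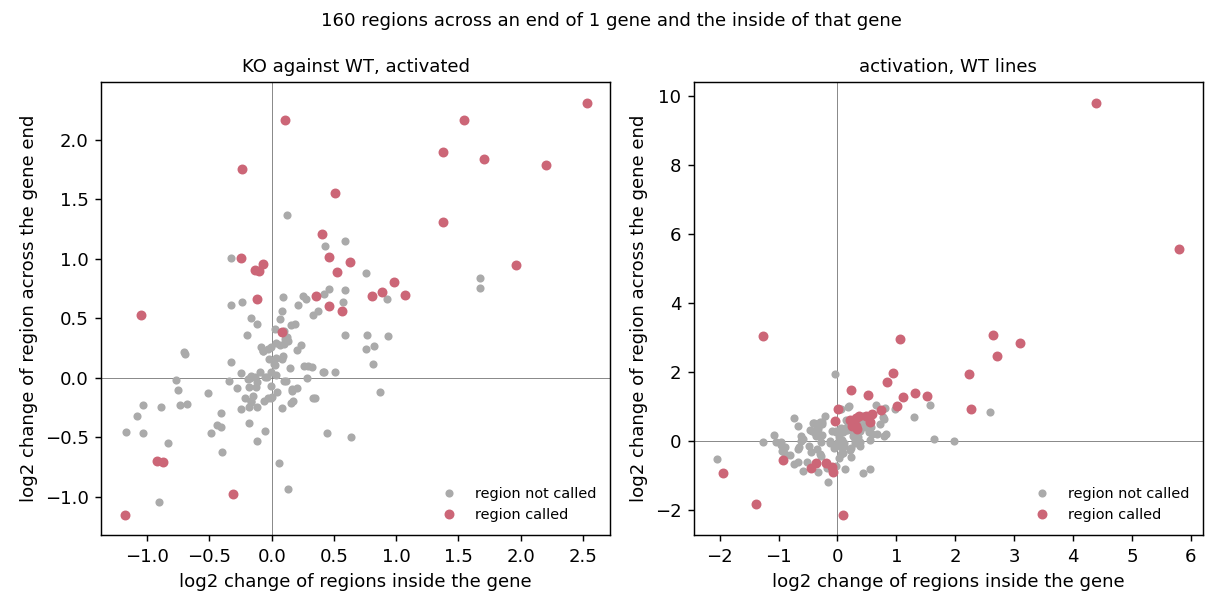
Log2 change of a region across a gene end (vertical axis) against that of the regions inside the same gene (horizontal axis) for 160 members, in activated KO against WT (left) and WT activation (right); red points are called regions. Of the red points 25 of 32 (left) and 35 of 38 (right) have the same sign on both axes, and Lair1 stands at -1.27 and 3.06 in the right panel.

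The difference of activation between genotypes was called for 23 members, 20 with a more positive log2 change in KO lines and 3 with a more negative one (1.23% and 0.185% of those tested). The background was 0.766% and 0.388% over all targets and 0.456% and 0.176% over the other regions, and fitted among regions only the counts were 12 and 5. Without the 2 libraries that stood apart the counts were 17 and 3. Castor1 went from 0.148 to 0.411 CPM to 0.397 to 1.07 CPM in WT lines and from 0.0343 to 0.219 CPM to 1.25 to 2.12 CPM in KO lines. Its activation change was 1.39 ± 0.30 in WT and 3.58 ± 0.32 in KO lines, a difference of 2.20 ± 0.42 (adjusted p 0.012). Mndal rose by 1.78 ± 0.14 in WT and 0.85 ± 0.14 in KO lines, a difference of -0.93 ± 0.19 (adjusted p 0.02). Ostn with Gm32312 rose by 1.49 ± 0.20 in WT and 3.01 ± 0.21 in KO lines (difference 1.53 ± 0.28, adjusted p 0.0091), from the lower unactivated KO level given above to a similar activated level of 4.25 to 7.87 CPM in WT and 4.39 to 8.95 CPM in KO lines.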

How the data were processed

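RNA-seq of 24 libraries was used. Per the submitters' processing notes the authors quantified reads with kallisto 0.43.0 and name DESeq2 and GRCm38.p5; the deposited values are estimated counts per target (transcripts and numbered regions), while how the index was built, which annotation it used and whether strand was set are not stated there. Region positions were compared with RefSeq genes (GRCm38.p6), leaving out 12 entries that span whole loci. Estimated counts were rounded, filtered with filterByExpr by group and scaled by TMM, and all 24 libraries were fitted with 8 group means in edgeR 4.0.16 (R 4.3.3, quasi-likelihood test, Benjamini-Hochberg adjustment over all targets tested). Depth was 28.99 to 34.07 M counts per library. Kallisto divides reads among similar targets, so levels of near-identical copies are uncertain, and intervals of the fit cover the spread between cultures of these clones only. Tested on simulated data for unactivated KO against WT over 61074 targets, with 200 regions changed, the fit recovered 16% of 2-fold and 63% of 4-fold changes, and 2.47% of its calls were false.

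The members and lists were chosen with earlier results of these data known, so no list gets a test of its own. Named regions were the 10 highest and 10 lowest called changes per comparison with at least 1 CPM and 1 sign in all pairings of lines, the 10 with the highest level, the 5 highest and 5 lowest differences of activation, and up to 4 per list. Regions touching only clone-named genes, such as Gm or Rik symbols, were left out of the rankings by change. Some of their called changes were larger than named ones, as on activation of WT lines across an end of Gm34472 (9.81) or Gm32164 (5.58). In unactivated KO cells 4933404K13Rik rose by 2.12 across its 5′ end (adjusted p 9.9e-07). Their levels are not given here. MicroRNA and gene pair members beyond the named regions were named after their values were seen. Shares of counts are given without a test. Alternatives were DESeq2 1.42.0, relative log expression scaling, a replicate block, no filter, counts summed per line, fewer libraries or lines, regions alone, a minimum of 200 counts, locus-wide entries kept, and single libraries left out; leaving out both libraries that stood apart was chosen after seeing the data. Sequence at gene ends was not analysed here.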

Additional observations from a re-analysis of the deposited data

Results flagged for a closer look

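The change on activation differed between KO and WT lines, by the interaction term of the edgeR fit, for 23 members, of which the 8 named by the rule for this difference are given here; Ostn with Gm32312 is among the others. The log2 change was more positive in KO lines for Igkv12-89 (difference 2.57 ± 0.47), Castor1 (2.20 ± 0.42), Irf8 (1.77 ± 0.41), Pla1a, a phospholipase gene (1.70 ± 0.30), and Haao, an enzyme gene of tryptophan breakdown (1.69 ± 0.39). It was more negative for Igkv9-124 (-2.09 ± 0.39), Rnf122 (-1.75 ± 0.38) and Mndal (-0.93 ± 0.19). Pla1a changed by 0.30 ± 0.21 in WT and by 2.00 ± 0.22 in KO lines (adjusted p of the difference 0.0057). Of the 24 fits that leave out 1 library, the call was lost in 20 for Irf8, 19 for Haao and 13 for Rnf122, and in none for the other 5.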

How the results depend on the processing

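Counts of member calls are given as higher and lower. With counts summed per line (2 against 2) they fell to 4 and 2 for KO against WT unactivated, 7 and 1 activated, 123 and 30 for activation of WT and 177 and 29 of KO lines; for the difference of activation edgeR then called 0 and 0 (99 and 47 at an unadjusted p under 0.05). In unactivated cells 43 were higher against WT alone and 44 against the WT clone alone, and 39 were lower with KO1 alone, with KO2 alone and against WT alone, 36 without the filter and 35 with the 12 libraries only. In activated cells 67 were higher with KO1 alone and 69 against WT alone, and 11 were lower with KO1 alone, 24 against the WT clone alone and 61 by DESeq2. Fitted among numbered regions only 92 were lower in activated KO cells, 238 on activation of WT and 246 of KO lines, and the difference of activation had 12 and 5. That difference had 37 and 7 by DESeq2 and 9 higher without the filter. The main fit had no replicate block. Correlations of same-numbered libraries between lines of 1 state ran from -0.52 to 0.48 (median 0.11). Those of differently numbered libraries ran from -0.54 to 0.68 (median -0.05). Whether libraries of 1 number shared a batch was not tested. With a replicate block the counts were 83 and 70, 133 and 45, 269 and 125, 357 and 101, and 27 and 5.

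Leaving out single libraries gave 56 to 75 and 46 to 64 for KO against WT unactivated, 94 to 113 and 27 to 35 activated, 219 to 281 and 92 to 119 for activation of WT, 294 to 321 and 67 to 79 of KO lines, and 12 to 19 and 2 to 4 for the difference. Differences in the members' share of counts ranged from -0.106 to -0.0435, -0.0697 to -0.0443, 0.00701 to 0.0698 and 0.0480 to 0.0659 percentage points. With the total of numbered regions as denominator the share difference was 0.271 for KO against WT activated (-0.0538 with all targets), -1.28 for activation of WT (0.0320) and 0.198 of KO lines (0.0595), where the first 2 changed sign; the cause was not tested. Of 172 calls on named or described members, 128 were lost with sums per line, 36 without some single library, 33 against WT alone, 33 without the low-count filter, 28 with KO1 alone, 20 with the 12 libraries only, 17 against the WT clone alone, 16 without both libraries that stood apart, 14 with KO2 alone and 9 when fitted among regions only; none changed sign. In the simulated data for unactivated KO against WT, with the limits given above, 16% of 2-fold changes were recovered.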
